A study of Mus musculus with 12 samples.

Results

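The genes described here are 10 receptor chains of type 2 immunity in granulocyte-monocyte progenitors (GMP) of the mouse, from which neutrophils and monocytes arise. They are Il17rb and Il17ra, Il1rl1, Crlf2 and Il7r, Il4ra, Il13ra1 and Il2rg, Il9r, and Il5ra. They were chosen by gene symbol, with their levels in the 4 groups of the study already known, and Il17rb was chosen for its difference between wild-type and Runx1-deleted cells. Their levels and differences are therefore a description and carry no test. The array carries 15 distinct 60-mers for these 10 genes among 39429 in all. Of the 10 genes, 9 had a 60-mer that the scanner software called well above background on all arrays of 1 group or more and entered the fit over 17907 genes, and Il13ra1 did not.

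The study measured RNA on 12 one-colour Agilent arrays in 4 groups. Both native groups came from unmanipulated bone marrow of mice with the vav-Cre transgene, which is active in blood and endothelial cells: Runx1+/+ (wt, 4 arrays) and Runx1 fl/fl, in which Cre deletes the gene (ko, 4 arrays). The 2 transplanted groups were GFP+ GMP from Runx1 fl/fl, vav-Cre marrow that had been harvested 3 days after 150 mg/kg 5-fluorouracil, infected with a MIG retrovirus and given to lethally irradiated recipients. The virus carried either ERt2 alone, a tamoxifen-responsive receptor domain (ERt2, 2 arrays), or RUNX1 fused to it (RUNX1-ERt2, 2 arrays). GMP were sorted after 6 weeks, 24 hours after the last of 3 daily injections of 49.5 μg/g tamoxifen; the sample descriptions of both transplanted groups name the drug, while the protocol text speaks of induction in part of the mice. All groups thus share vav-Cre, and ko, ERt2 and RUNX1-ERt2 share the Runx1 deletion. Ages of the mice, and whether replicates came from separate mice, are not given in the labels, so the spread between arrays may be technical.

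Type 2 cytokine receptors work as pairs of chains. IL-25 (IL-17E) binds the IL-17RB chain, which signals together with IL-17RA through the adaptor Act1. IL-33 binds ST2, the product of Il1rl1, which pairs with IL-1RAP and signals through MyD88. TSLP binds the product of Crlf2 together with the IL-7 receptor alpha chain. IL-4 and IL-13 use IL-4R alpha with either the common gamma chain (Il2rg) or IL-13R alpha 1, IL-9 uses IL-9R with the common gamma chain, and IL-5 uses IL-5R alpha with the common beta chain; all of these signal through Janus kinases and STAT proteins. In marrow, several of these receptors, though not all, are known from basophils, eosinophils, mast cells and their progenitors.

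For the 2 genes that the results turn on, the bases before the transcription start are shown. Marked in them are letters bound by RUNX factors (TGTGGT or TGCGGT) and by GATA factors (AGATAA). Only these exact letters were searched, so other forms of the RUNX and GATA motifs are not marked or counted. Shown are the 250 bases before the start from RefSeq (GRCm38.p6), written 5′ to 3′ on the strand of the gene. Matches on either strand are in capitals. Il1rl1 has 2 starts in that table, an upstream and a downstream one.
Il17rb, chr14:30008897-30009146, minus strand: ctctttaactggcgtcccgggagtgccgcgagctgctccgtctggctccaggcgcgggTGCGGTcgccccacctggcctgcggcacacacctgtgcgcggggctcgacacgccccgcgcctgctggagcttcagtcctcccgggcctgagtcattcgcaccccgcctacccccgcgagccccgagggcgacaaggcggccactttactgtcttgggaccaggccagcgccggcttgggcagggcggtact
Il1rl1 upstream start, chr1:40429320-40429569, plus strand: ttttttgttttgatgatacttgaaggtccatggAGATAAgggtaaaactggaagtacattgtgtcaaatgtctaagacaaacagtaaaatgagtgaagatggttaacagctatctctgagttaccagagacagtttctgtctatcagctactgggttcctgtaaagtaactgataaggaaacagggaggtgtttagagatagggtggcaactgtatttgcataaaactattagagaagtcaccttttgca
Il1rl1 downstream start, chr1:40439379-40439628, plus strand: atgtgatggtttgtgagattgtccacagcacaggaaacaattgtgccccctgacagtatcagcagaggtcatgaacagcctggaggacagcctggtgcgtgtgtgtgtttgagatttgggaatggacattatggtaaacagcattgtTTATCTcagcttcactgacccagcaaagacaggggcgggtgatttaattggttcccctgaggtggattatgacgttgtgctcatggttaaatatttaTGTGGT
The Il17rb window holds TGCGGT with its first base at -192 and no TGTGGT. The upstream Il1rl1 window holds AGATAA at -217 and neither RUNX motif. The downstream one holds TGTGGT at -6, directly before the start, and AGATAA on the opposite strand at -103. Over all 32851 promoter windows of 300 bases (250 before and 50 after the start), 16.8% held TGTGGT, 6.45% TGCGGT, 22.4% at least 1 of these, and 11.2% AGATAA, on either strand; the motifs do not overlap each other in the windows shown. Of the 10 windows of 9 members in the table, TGTGGT was also found in those of Crlf2 (-236, opposite strand), Il9r (-83), Il2rg (-227) and Il7r (3 bases after the start), and AGATAA in those of Il5ra (-74) and Il9r (-223 and, on the opposite strand, -30). A match, or its absence, describes the letters of the window only. The array reads Il17rb with a pair of 60-mers, and the one nearer to the 5′ end of the transcript, from base 220 (chr14:30819260-30819319 of mm9, minus strand), is shown because it gives a second reading of the same gene.
Il17rb 60-mer: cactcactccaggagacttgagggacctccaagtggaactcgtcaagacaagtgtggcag

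Between 53.5% and 63.2% of 60-mers were well above background on an array, with the lower shares in the transplanted groups (at most 56.3%, against at least 56.7% in the native ones). The Runx1 60-mer that stands for the targeted gene does not check the deletion, since the labels do not say which part of the gene is removed: its ko minus wt difference was 1.69 (SE 0.17, limma adjusted p = 0.00025) and its RUNX1-ERt2 minus ERt2 difference -1.09 (SE 0.24, limma adjusted p = 0.012; 0.0702 without ERt2 replicate 1 and 0.0864 without RUNX1-ERt2 replicate 2). Of 7 RUNX and partner genes, 6 were tested, of which 4 rose and 0 fell in ko, and 0 rose and 3 fell with RUNX1-ERt2. Over all genes tested, 11.5% rose and 13.8% fell in ko, and 10.2% rose and 8.87% fell with RUNX1-ERt2. Runx1 itself is in both counts. The ko call of Runx2 (0.53, limma adjusted p = 0.022) was lost with normexp background correction (0.19, limma adjusted p = 0.445). It was also lost without wt replicate 1, 2 or 4 or ko replicate 1 or 4. The other Runx2 60-mers gave differences of group means of -0.47 and 0.81 for ko minus wt. For RUNX1-ERt2 minus ERt2 the same 60-mers gave 0.21 and -1.29, so 1 of them went against the calls in both comparisons. Native wt and ko lie on the same 2 slides, and the differences were fitted with the slide as a term.

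Il17rb, the IL-25 binding chain, was well above background in wt and at or near background in ko. Levels are log2 intensities minus that of the array's 75th percentile, so that 0 is the level of that percentile. With the brighter 60-mer, from base 2001 of the transcript (chr14:30809354-30809413 of mm9, minus strand), wt arrays read -0.63, -0.51, -0.73 and -0.80. The ko arrays read -6.60, -6.52, -8.07 and -5.92, of which only the last was well above background. The ERt2 arrays read -5.16, not well above background, and -3.91, and the RUNX1-ERt2 arrays read -4.40 and -2.11. All 4 wt arrays thus lay far above every other array, and ERt2 and RUNX1-ERt2 overlapped. The order of the means was wt (-0.67 ± 0.13, SD, n = 4), RUNX1-ERt2 (-3.26 ± 1.62, n = 2), ERt2 (-4.53 ± 0.89, n = 2) and ko (-6.78 ± 0.91, n = 4), and only the neighbours RUNX1-ERt2 and ERt2 overlapped. In bulk RNA, fewer cells that express a gene and less of its RNA per cell cannot be told apart.

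The difference of Il17rb between ko and wt was -6.11 (SE 0.56), with -5.99 on slide 1 and -6.23 on slide 2, which each held 2 arrays of both groups. With only 1 of 4 ko arrays well above background, its size depends on how dim signals are treated: it was -5.44 with signals raised to the lowest one above background and -3.50 with normexp background correction. The 60-mer at base 220 read -5.34, -4.92, -5.04 and -5.37 in wt, its only arrays well above background, and between -8.46 and -8.22 in ko. Its difference of -3.18 (SE 0.21) is bounded by background, and the measured levels put ko at least 2.01-fold below wt; the bound sets the mean of wt against the mean, over ko arrays, of the lowest signal well above background. No array outside wt was well above background with this 60-mer (group means -5.17 in wt, -6.22 in RUNX1-ERt2, -7.25 in ERt2 and -8.35 in ko), so no order is read among the other groups and no difference between the transplanted ones. With the brighter 60-mer, RUNX1-ERt2 minus ERt2 was 1.28 (SE 0.79). Without single arrays it ranged from 0.14, when RUNX1-ERt2 replicate 2 was left out, to 2.42, when RUNX1-ERt2 replicate 1 was left out, so 1 array decides its size. Each transplanted group lies on a slide of its own, so for every gene slide and group cannot be told apart in that comparison.

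Il17ra, the chain shared by several IL-17 receptors, did not follow Il17rb. Its 60-mer (base 3104, chr6:120432880-120432939) read 0.82, 0.95, 0.82 and 1.04 in wt and 1.29, 1.05, 1.34 and 1.72 in ko, which all lay above wt, the closest pair being 1.05 and 1.04. ERt2 read 0.84 and 0.68 and RUNX1-ERt2 0.40 and 0.38, the lowest of all arrays. The difference was 0.44 (SE 0.12) for ko minus wt and -0.37 (SE 0.17) for RUNX1-ERt2 minus ERt2. For this chain ko was the highest group and RUNX1-ERt2 the lowest, with wt and ERt2 overlapping between them.

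**Figure D1:**
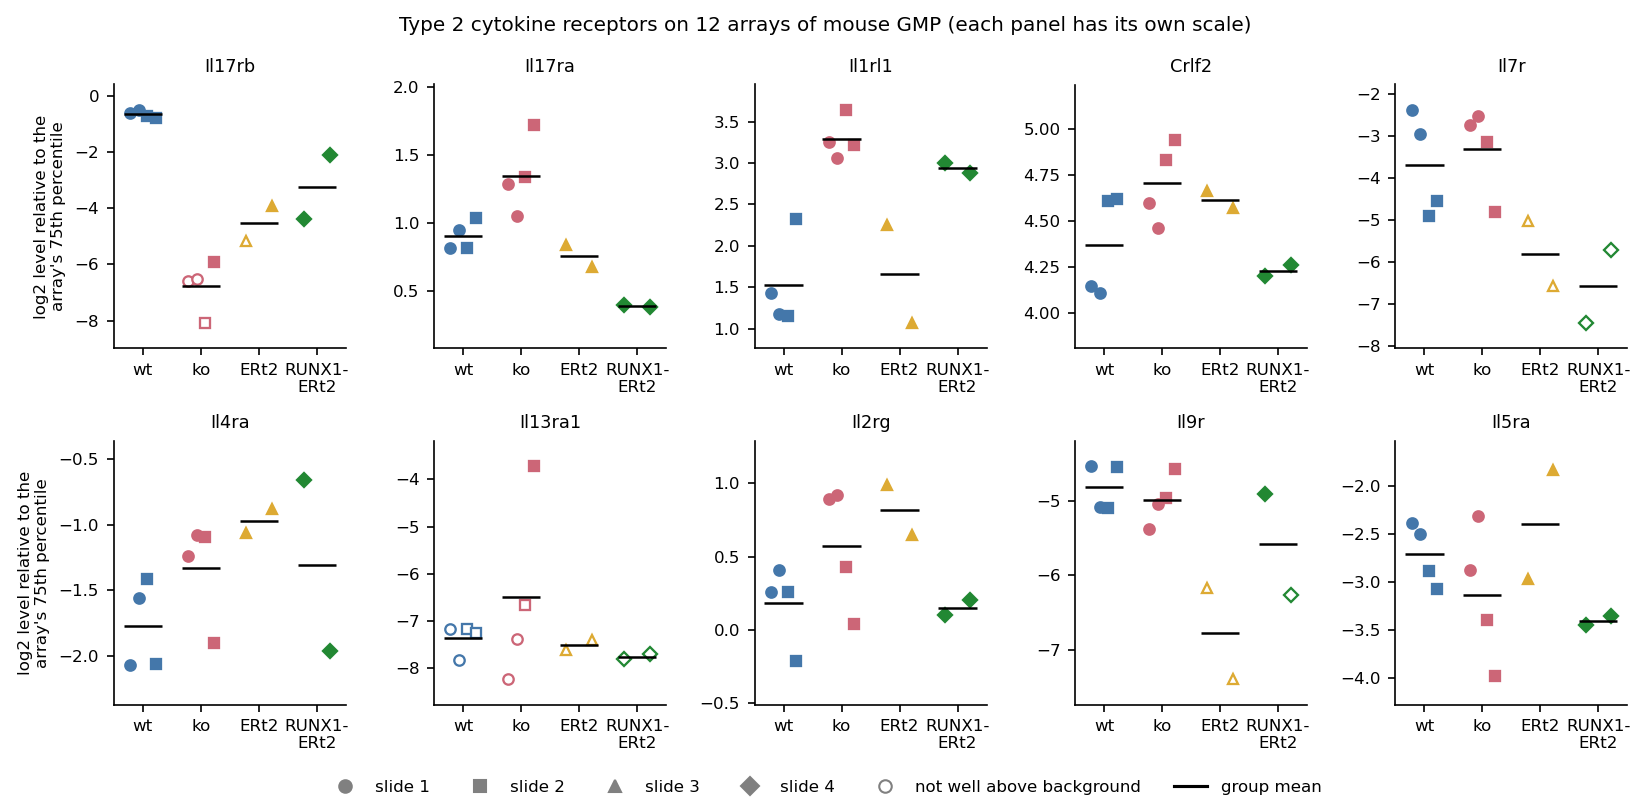
Levels of the 10 receptor genes on each array: log2 intensity relative to the array's 75th percentile (y axis, own scale per panel) against group (x axis), with marker shape for the slide, open markers for arrays not well above background and a line at the group mean. Il17rb is high only in wt, Il1rl1 is high in ko and RUNX1-ERt2, and Il7r and Il9r are at or near background in the transplanted groups.

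Il1rl1, which encodes the IL-33 receptor ST2, was higher in ko than in wt and also higher with RUNX1-ERt2 than with ERt2. The brightest of its 3 60-mers, from base 4998 of transcript variant 1 (chr1:40522187-40522246), read 1.43, 1.18, 1.15 and 2.32 in wt and 3.25, 3.06, 3.64 and 3.22 in ko. ERt2 read 2.25 and 1.07, within the range of wt but for the lower array, and RUNX1-ERt2 read 3.00 and 2.88, just under the lowest ko array. Wt replicate 4 was the highest wt array with each of the 3 60-mers, and the groups compared did not overlap with any of them. The difference was 1.77 (SE 0.29; 1.85 on slide 1 and 1.70 on slide 2) for ko minus wt and 1.28 (SE 0.42) for RUNX1-ERt2 minus ERt2, the latter between 0.69 and 1.87 without single arrays. By contrast, Il17rb was lower in ko than in wt and lay between these groups in both transplanted groups.

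Il1rl1 gives a membrane-bound receptor and a soluble decoy form, and the files assign its 60-mers to transcript variants 1 and 2; whether each 60-mer reads 1 variant alone was not tested. The 60-mer assigned to variant 2 (base 2563, chr1:40504769-40504828) read -2.64, -2.85, -3.39 and -2.36 in wt and -1.06, -1.28, -0.56 and -1.13 in ko. ERt2 read -2.13 and -3.23 and RUNX1-ERt2 -0.78 and -1.58. The differences were 1.80 (SE 0.32) and 1.5 (SE 0.45), against 1.57 (SE 0.38) and 1.66 (SE 0.53) for the second 60-mer assigned to variant 1 (base 2825, chr1:40520014-40520073). The 60-mers of both assignments were thus higher in ko than in wt, and with RUNX1-ERt2 than with ERt2, by amounts whose errors overlap.

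**Figure D2:**
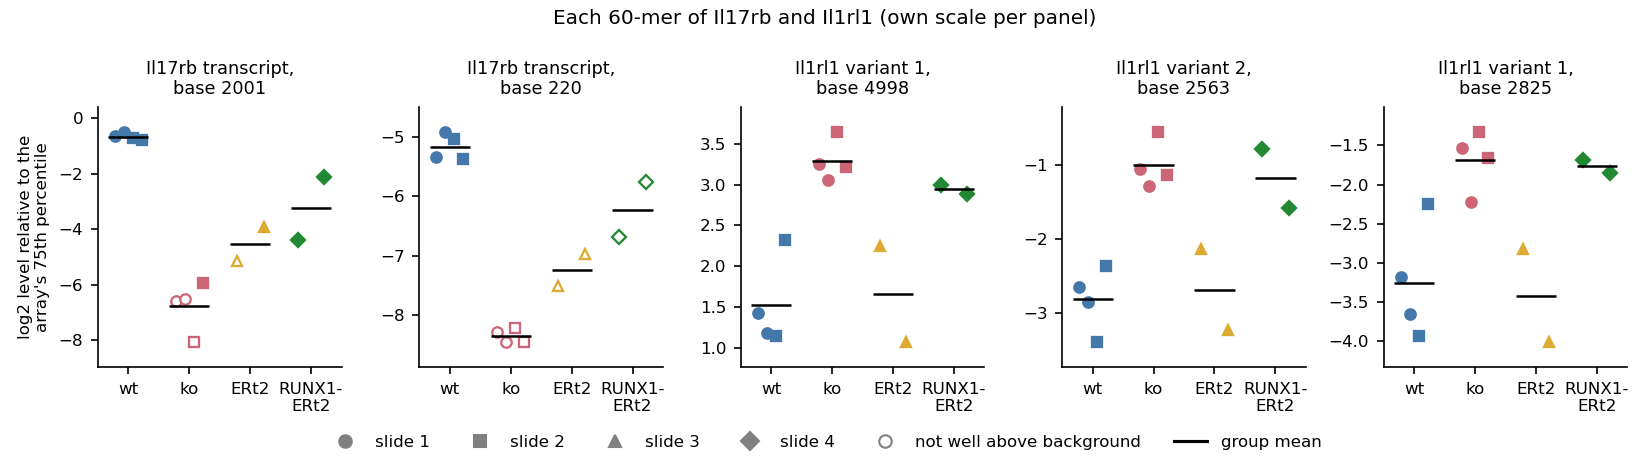
The pair of 60-mers of Il17rb and the 3 of Il1rl1, array by array: log2 level relative to the array's 75th percentile (y axis, own scale per panel) against group, marker shape for slide, open markers not well above background, line at the group mean. Both Il17rb 60-mers put wt highest, and all Il1rl1 60-mers put ko and RUNX1-ERt2 above wt and ERt2.

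Crlf2, the specific chain of the TSLP receptor, was well above background on all 12 arrays. Its 60-mer (base 1296 of variant 1, chr5:109983732-109983791) read 4.15 and 4.11 on the slide 1 arrays of wt and 4.61 and 4.62 on those of slide 2. The ko arrays read 4.60 and 4.46 on slide 1 and 4.83 and 4.94 on slide 2, so the groups overlapped over both slides and were apart within each. The difference was 0.33 (SE 0.08; 0.40 and 0.27 within the slides). ERt2 read 4.66 and 4.57 and RUNX1-ERt2 4.20 and 4.26, a difference of -0.39 (SE 0.11). Crlf2 thus varied by less than 1 log2 unit over the 12 arrays.

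Il7r, the alpha chain of the IL-7 receptor and partner of the Crlf2 chain, was low and uneven. Its 60-mer (base 3088, chr15:9435976-9436035) read -2.38, -2.95, -4.90 and -4.54 in wt and -2.73, -2.52, -3.14 and -4.81 in ko. In wt the slide 1 arrays were the higher pair, and ko replicate 4 was the lowest ko array. No ERt2 array (-5.02 and -6.58) and no RUNX1-ERt2 array (-7.45 and -5.72) was well above background, so no difference is read between the transplanted groups. The difference between ko and wt was 0.39 (SE 0.50).

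Il4ra, the ligand-binding chain for IL-4 and the signalling chain for IL-13, overlapped between wt and ko and between the transplanted groups. Its brighter 60-mer (base 5027, chr7:132722922-132722981) read -2.07, -1.56, -1.41 and -2.06 in wt, -1.24, -1.08, -1.09 and -1.90 in ko, -1.06 and -0.88 in ERt2, and -0.66 and -1.96 in RUNX1-ERt2. Both ERt2 arrays lay above all wt and ko arrays, the closest ko array by little. The differences were 0.45 (SE 0.30) for ko minus wt and -0.34 (SE 0.43) for RUNX1-ERt2 minus ERt2. The other 60-mer, from base 466 (chr7:132712550-132712609), gave 0.10 (SE 0.17) and -0.22 (SE 0.23). Il13ra1, the chain that pairs with it in the receptor for both cytokines (base 2582, chrX:33710154-33710213), was well above background on 1 of 12 arrays, ko replicate 4, at -3.72, and lay between -8.23 and -6.66 on all others. No fold is given for it.

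Il2rg, the gamma chain shared by the receptors of IL-2, IL-4, IL-7, IL-9, IL-15 and IL-21, read 0.26, 0.41, 0.26 and -0.21 in wt and 0.89, 0.92, 0.43 and 0.04 in ko (base 1148, chrX:98460130-98460189). Replicate 4 was the lowest array of both groups, and the groups overlapped. ERt2 read 0.99 and 0.65 and RUNX1-ERt2 0.10 and 0.20. The differences were 0.39 (SE 0.15) and -0.67 (SE 0.21).

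Il9r, the specific chain of the IL-9 receptor, was close to background throughout. Its brighter 60-mer (base 3021 of variant 1, chr11:32089002-32089061) read between -5.10 and -4.54 in wt and between -5.38 and -4.58 in ko, a difference of -0.17 (SE 0.35). Neither ERt2 array (-6.17 and -7.39) and only 1 RUNX1-ERt2 array (-4.91, the other -6.26) was well above background. The fitted difference of 1.2 (SE 0.50) became 0.04 when signals were raised to the lowest signal well above background, so no fold is given. The other Il9r 60-mer (base 1524, chr11:32090499-32090558) was well above background on 2 of 12 arrays.

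Il5ra, the specific chain of the IL-5 receptor and a marker of eosinophil and basophil progenitors, read -2.39, -2.50, -2.89 and -3.08 in wt and -2.88, -2.31, -3.40 and -3.98 in ko (base 3488, chr6:106660378-106660437). ERt2 read -2.97 and -1.83 and RUNX1-ERt2 -3.45 and -3.36. Ko overlapped wt. Both RUNX1-ERt2 arrays lay below both ERt2 arrays and below all wt arrays, but overlapped ko. The differences were -0.43 (SE 0.26) and -1.01 (SE 0.37), the latter between -1.58 and -0.43 without single arrays. Of all genes tested, 11.5% rose and 13.8% fell in ko, and 10.2% rose and 8.87% fell with RUNX1-ERt2. Beside Il5ra, of 12 eosinophil markers tested 1 rose and 0 fell in ko, namely Siglecf, an eosinophil surface lectin (0.93, SE 0.18, limma adjusted p = 0.0071). With RUNX1-ERt2, 1 rose, the transcription factor Gata1 (1.93, SE 0.47, limma adjusted p = 0.02, but 0.127, 0.0916 and 0.0691 without ERt2 replicate 2, RUNX1-ERt2 replicate 1 and RUNX1-ERt2 replicate 2), and 2 fell, the granule protein genes Prg2 (-3.32, SE 0.93, limma adjusted p = 0.035) and Prg3 (-3.06, SE 0.83, limma adjusted p = 0.031). The summed linear level of this list (in units of each array's 75th percentile) ranged from 46.7 to 85.2 in wt, 47.6 to 114 in ko, 92.9 to 112 in ERt2 and 57.0 to 67.6 in RUNX1-ERt2, and its part in the Il5ra values was not tested. Such a sum is carried by the brightest genes of a list. Without any single array of the 4 Prg2 no longer passed (limma adjusted p from 0.0664 without RUNX1-ERt2 replicate 1 to 0.171 without RUNX1-ERt2 replicate 2, 0.0839 and 0.155 without ERt2 replicates 1 and 2), and neither did Prg3 without ERt2 replicate 1 (0.0558), ERt2 replicate 2 (0.164) or RUNX1-ERt2 replicate 2 (0.172).

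Counted in the fit over all genes, 3 of the 10 receptors passed the threshold as higher in ko than in wt (Il17ra, Il1rl1 and Crlf2) and 1 as lower (Il17rb), at a limma adjusted p under 0.05. The same fit called 11.5% of all genes tested higher and 13.8% lower in ko. With RUNX1-ERt2 against ERt2, 0 passed as higher and 1 as lower (Crlf2), where 10.2% of all genes were called higher and 8.87% lower. Since the receptors were chosen with these levels known, nothing is read from the counts. The median difference of the 9 receptors was 0.39 in ko against -0.05 over all genes, and -0.37 with RUNX1-ERt2 against 0 over all genes, the latter with Il7r and Il9r counted although neither was well above background in ERt2. The Il17ra call in ko ended without wt replicate 1 or 3 or ko replicate 1 or 4, and the Crlf2 call with RUNX1-ERt2 ended without any single one of the 4 transplant arrays. With the replicate number as a block in place of the slide term, Il2rg passed as well, as higher in ko and as lower with RUNX1-ERt2. That block joins arrays of the same number over all groups, native and transplanted, although these lie on different slides. It is therefore not a pairing of the transplanted arrays alone.

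**Figure D3:**
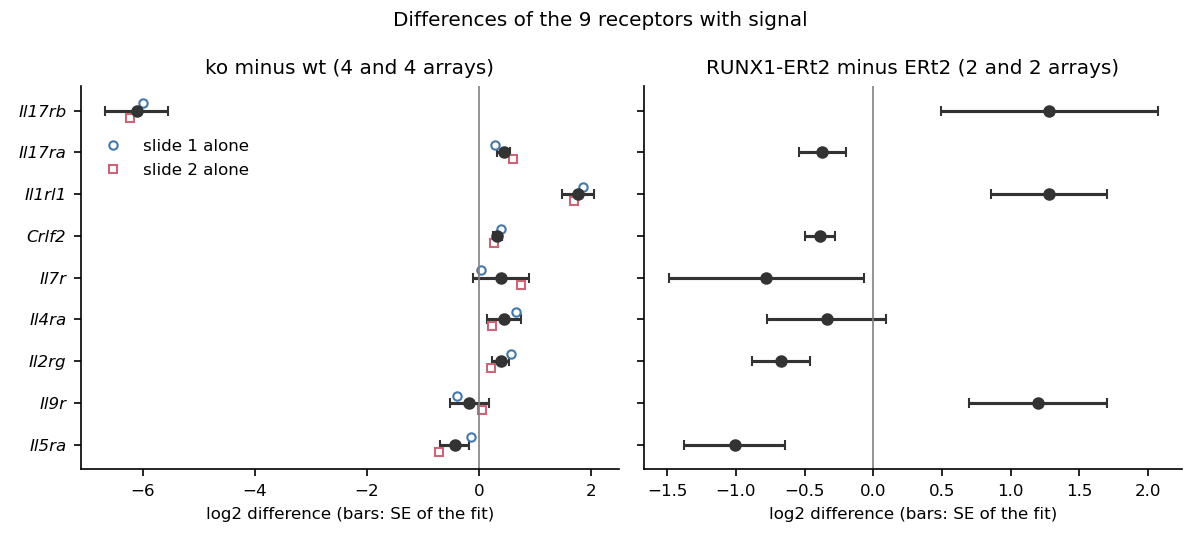
Log2 differences of the 9 receptors with signal (x axis), ko minus wt on the left and RUNX1-ERt2 minus ERt2 on the right, with the standard error of the fit; open markers give the ko minus wt difference within each slide. Il17rb is at -6.11 and Il1rl1 at 1.77 on the left, and both are at 1.28 on the right.

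Setting the 2 comparisons side by side for the chains that pair with each other, Il17rb was -6.11 and 1.28 and its partner Il17ra 0.44 and -0.37. Among the other IL-17 receptor genes, both those measured went with Il17rb in direction. Il17re, the chain for IL-17C, fell by 1.19 in ko (SE 0.32, limma adjusted p = 0.027) and rose by 2.41 with RUNX1-ERt2 (SE 0.46, limma adjusted p = 0.0063). Il17rc, a chain of the IL-17A and IL-17F receptor, fell by 1.01 in ko (SE 0.22, limma adjusted p = 0.011) and rose by 1.37 with RUNX1-ERt2 (SE 0.31, limma adjusted p = 0.015). The rise of Il17re was 1.53 without ERt2 replicate 2, 3.29 without ERt2 replicate 1, and not called with only the groups compared (limma adjusted p = 0.0994). The ko call of Il17re ended without any single one of the 8 native arrays (limma adjusted p from 0.0503 to 0.0691), and the RUNX1-ERt2 call of Il17rc without ERt2 replicate 2 (1.03, limma adjusted p = 0.100) or RUNX1-ERt2 replicate 2 (1.26, limma adjusted p = 0.0844). The ko call of Il17rc was lost with normexp background correction (limma adjusted p = 0.0703) and without the slide term (0.0531). Its RUNX1-ERt2 difference was 0.36 with normexp (limma adjusted p = 0.843), and 1 of 2 ERt2 arrays was well above background. Il17rd was above background on no array. Of the chains that pair with the receptors, Il1rap, the partner of ST2, was -0.31 (SE 0.12, limma adjusted p = 0.094) in ko and 0.42 (SE 0.17, limma adjusted p = 0.12) with RUNX1-ERt2. Csf2rb, the common beta chain used by IL-5R alpha, whose near-identical copy Csf2rb2 may share its signal, rose by 0.89 in ko (SE 0.18, limma adjusted p = 0.007) and fell by 0.86 with RUNX1-ERt2 (SE 0.25, limma adjusted p = 0.039). That fall lost its call without ERt2 replicate 1 (limma adjusted p = 0.127), ERt2 replicate 2 (0.130) or RUNX1-ERt2 replicate 2, where it was -0.52 (0.229). Il17rc, Il1rap and Csf2rb are named as partner chains, with their values known.

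Beside the counts of the lists stand those over all genes tested: 11.5% rose and 13.8% fell in ko, and 10.2% rose and 8.87% fell with RUNX1-ERt2. The lists, like the receptors, were chosen with earlier results of these data known, so nothing is read from their counts. Of the whole list of 17 other shared-chain and IL-17 receptors, 14 were tested, of which 3 rose and 4 fell in ko, while 3 rose and 5 fell with RUNX1-ERt2; the list medians were -0.27 and -0.37. Il1r1, the IL-1 receptor, fell by 2.53 in ko (SE 0.18, limma adjusted p = 5.1e-05) and rose by 1.07 with RUNX1-ERt2 (SE 0.26, limma adjusted p = 0.02). Il10rb, a chain shared by the IL-10 family, did the opposite, at 0.66 (SE 0.09, limma adjusted p = 0.0012) and -1.58 (SE 0.13, limma adjusted p = 5.7e-05). Il21r, which uses the common gamma chain, fell by 2.88 with RUNX1-ERt2 (SE 0.25, limma adjusted p = 8.4e-05). The rise of Il1r1 lost its call without ERt2 replicate 1 (0.85, limma adjusted p = 0.122), RUNX1-ERt2 replicate 1 (1.15, 0.0586) or RUNX1-ERt2 replicate 2 (0.99, 0.0998).

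Of 14 ligands, 5 were tested, of which 2 rose and 0 fell in ko, while 1 rose and 2 fell with RUNX1-ERt2; the list medians were 0.37 and -0.12. The genes for IL-25, IL-33, IL-13, IL-9, IL-2, IL-21 and IL-17A were above background on no array. Il4, the ligand of Il4ra, rose by 2.83 in ko (SE 0.14, limma adjusted p = 4.8e-06) and by 1.15 with RUNX1-ERt2 (SE 0.19, limma adjusted p = 0.0032), the directions that Il1rl1 had. Il15, which signals through the common gamma chain, rose by 0.87 in ko (SE 0.17, limma adjusted p = 0.0065). Tslp, the ligand of the Crlf2 chain, fell by 2.47 with RUNX1-ERt2 (SE 0.21, limma adjusted p = 7.3e-05), from -1.59 to -4.06. Il5 was well above background on both ERt2 arrays and on neither RUNX1-ERt2 array, where it was at least 2.46-fold lower (measured means -4.14 and -7.72; limma adjusted p = 0.0033). With normexp background correction, the RUNX1-ERt2 calls of Il4 (1.04, limma adjusted p = 0.103) and Il5 (-0.99, limma adjusted p = 0.43) were lost.

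Of 21 signalling genes below these receptors, all were tested, and 11 rose and 0 fell in ko, while 2 rose and 3 fell with RUNX1-ERt2; the list medians were 0.41 and -0.13. Jak3, the kinase on the common gamma chain, rose by 1.53 in ko (SE 0.17, limma adjusted p = 0.00048) and fell by 0.97 with RUNX1-ERt2 (SE 0.24, limma adjusted p = 0.022). Stat3 rose by 0.67 (SE 0.12, limma adjusted p = 0.0047) and Myd88, the adaptor of ST2, by 0.63 in ko (SE 0.10, limma adjusted p = 0.003). Traf3ip2, which encodes Act1, the adaptor of the IL-25 receptor, fell by 2.61 with RUNX1-ERt2 (SE 0.20, limma adjusted p = 3.9e-05), from -1.29 to -3.90. Its rise of 0.46 in ko (SE 0.14, limma adjusted p = 0.04) ended without wt replicate 1, 2 or 4 or ko replicate 1, 2 or 4 (limma adjusted p from 0.0729 to 0.119). The fall of Jak3 ended without ERt2 replicate 1 (-0.72, limma adjusted p = 0.137), RUNX1-ERt2 replicate 1 (-1.01, 0.0751) or RUNX1-ERt2 replicate 2 (-0.94, 0.0971).

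Of 17 feedback and target genes of STAT5 and STAT6, 15 were tested, and 10 rose and 1 fell in ko, while 2 rose and 3 fell with RUNX1-ERt2; the list medians were 1.28 and 0.23. Arg1 and Retnla, not tested, were above background on no array. Not called in ko were, among others, Chil3 (0.37, SE 0.80, limma adjusted p = 0.78) and Fcer2a (0.03, SE 0.18, limma adjusted p = 0.93). Socs3, a feedback inhibitor of cytokine signalling, rose by 2.62 in ko (SE 0.42, limma adjusted p = 0.0028). Ccl24, an eosinophil chemokine, rose by 2.11 in ko (SE 0.40, limma adjusted p = 0.006) and fell by 4.23 with RUNX1-ERt2 (SE 0.57, limma adjusted p = 0.00098), and its signal exceeded background on 2 of 4 arrays of wt and 1 of 2 of RUNX1-ERt2. Its ko difference was 0.36 (limma adjusted p = 0.481) with normexp background correction. Cdkn1a, a cell cycle inhibitor, rose by 2.73 with RUNX1-ERt2 (SE 0.37, limma adjusted p = 0.0011). Chil3, a chitinase-like gene of macrophages, fell by 4.15 (SE 1.14, limma adjusted p = 0.032), a call that ended without any single one of the 4 transplant arrays (limma adjusted p from 0.0907 to 0.136).

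**Figure D4:**
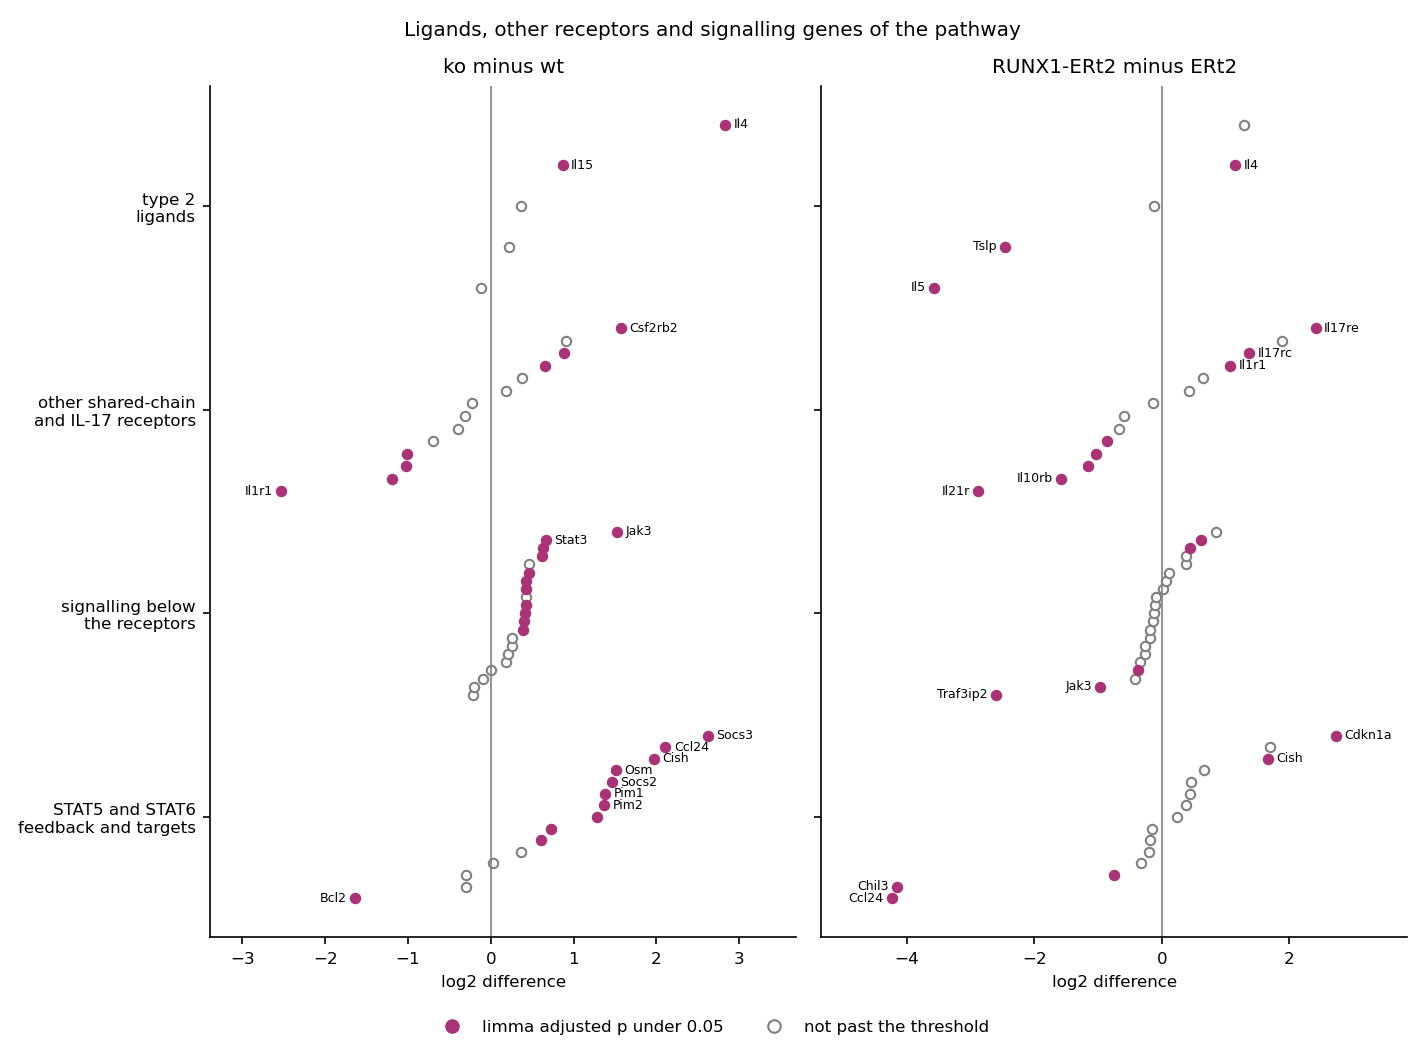
Log2 differences (x axis) of the tested genes of 4 lists (rows), ko minus wt on the left and RUNX1-ERt2 minus ERt2 on the right; filled points passed a limma adjusted p of 0.05 and the largest are named. In ko, 11 of 21 signalling genes and 10 of 15 feedback and target genes rose, where 11.5% of all genes tested did. The lists were chosen with earlier results of these data known, so nothing is read from these counts.

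The genes whose levels were most like those of Il17rb over the 12 arrays, among 14254 named genes compared, were Fcer1a and Evpl (Pearson r 0.97), Epha7, Elapor2, Khdrbs3, Cfc1 and Cdh1 (0.96), and Gpr34 (0.95). The points are 12 arrays in 4 groups, so the likeness is mostly that of the group means and is given as a description. These genes were picked by that likeness, so their falls in ko follow from the choice and carry no test. Fcer1a, which encodes the IgE-binding chain on basophils and mast cells, had group means of -0.41 in wt, -7.83 in ko, -4.80 in ERt2 and -4.76 in RUNX1-ERt2 and was at least 54.4-fold lower in ko than in wt, being well above background on no ko array. Cdh1, the adhesion molecule E-cadherin, was at least 11.4-fold lower in ko, with means of -2.67 and -8.20. Evpl, which encodes a junctional plaque protein, fell by 3.22 in ko (SE 0.36). Epha7, an ephrin receptor, fell by 2.44 (SE 0.29) and Khdrbs3, an RNA-binding protein gene, by 2.6 (SE 0.22). Elapor2, Cfc1 and Gpr34 were at least 2.56-fold, 3.63-fold and 2.84-fold lower in ko. Among the receptors themselves, the lowest correlation with Il17rb was that of Il1rl1 (r = -0.76) and the highest that of Il5ra (r = 0.27), over the same 12 arrays.

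Markers of cells that carry several of these receptors moved in both directions. Of 16 basophil and mast cell markers tested, 4 rose and 7 fell in ko, and 2 rose and 4 fell with RUNX1-ERt2. The shares of all genes tested that rose and fell were 11.5% and 13.8% in ko, and 10.2% and 8.87% with RUNX1-ERt2. The marker lists too were chosen with earlier results of these data known, so nothing further is read from their counts. The basophil protease gene Prss34, well above background on 2 of 4 ko arrays, fell by 8.10 in ko (SE 0.56, limma adjusted p = 3.6e-05) and rose by 3.29 with RUNX1-ERt2 (SE 0.79, limma adjusted p = 0.019), a rise whose call ended without ERt2 replicate 1 (2.51, limma adjusted p = 0.12) or RUNX1-ERt2 replicate 2 (1.93, 0.0799). Mcpt8, another basophil protease gene, fell by 3.34 in ko (SE 0.12, limma adjusted p = 1.9e-06) and by 0.89 with RUNX1-ERt2 (SE 0.17, limma adjusted p = 0.0056). Cd200r3, a receptor of basophils and mast cells, rose by 4.16 in ko (SE 0.15, limma adjusted p = 2e-06). The summed level of this list ranged from 70.8 to 78.2 in wt, 76.2 to 118 in ko, 129 to 140 in ERt2 and 79.3 to 108 in RUNX1-ERt2, with Mcpt4 above background on at most 2 arrays and Fcer1a and Cma1 on no ko array. Its brightest genes in ko were Cpa3, Hdc and Kit (means 5.30, 4.10 and 4.03), so it does not show the falls of Prss34, Mcpt8 and Fcer1a. The part of these markers in the differences of Il17rb, Il1rl1 and Il4 was not tested.

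Of 13 markers of type 2 innate lymphoid and T cells tested, 1 rose and 1 fell in ko, and 3 rose and 1 fell with RUNX1-ERt2, with a summed level between 2.5 and 5.77 on all arrays. Of 11 early lymphoid and B lineage markers, 0 rose and 2 fell in ko, and 2 rose and 3 fell with RUNX1-ERt2. Of 11 monocyte and macrophage markers, 0 rose and 3 fell in ko, and 0 rose and 6 fell with RUNX1-ERt2, with sums from 90.0 to 102 in ERt2 and 7.71 to 13.7 in RUNX1-ERt2, beside the falls of Ccl24 and Chil3. The brightest of these markers in ERt2 was F13a1, with a mean of 5.86 against 0.46 in RUNX1-ERt2. Of 13 erythroid and megakaryocyte markers, 5 rose and 1 fell in ko, and 1 rose and 1 fell with RUNX1-ERt2. The 16 GMP and promyelocyte markers, which bear on the labelled cell type, were all well above background in at least 1 group. Of them, 2 rose and 8 fell in ko, and 1 rose and 7 fell with RUNX1-ERt2. Their summed level was 721 to 991 in wt, 464 to 604 in ko, 1020 to 1160 in ERt2 and 568 to 764 in RUNX1-ERt2. The sums were thus lower in ko than in wt, and lower in RUNX1-ERt2 than in ERt2, with 2 arrays each in the latter comparison. Mpo and Ctsg were the brightest genes of this sum in each group. Beside the counts of these lists stand the shares over all genes tested. In ko 11.5% rose and 13.8% fell, and with RUNX1-ERt2 10.2% rose and 8.87% fell. The lists were chosen with earlier results of these data known, so nothing is read from their counts. None of the shifts in these lists was tested as a part of the receptor differences.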

How the data were processed

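RNA from sorted GMP of 4 groups was measured on 12 one-colour Agilent arrays. Per the file headers, the deposited intensity per spot is the processed signal of Agilent Feature Extraction 10.7.3.1, background-subtracted on a linear scale, with 60-mer coordinates on mm9; the submitters' processing notes name version 9.1. The deposited series table holds a ratio, the same signal divided by about the median of the array, per a comparison of both; its wt and ko columns match scanner files of other replicate numbers, so the scanner files were used and the table served as an alternative.

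Control and outlier-flagged spots (129 to 207 on an array) were removed, repeated spots averaged, and log2 intensities of the deposited signal taken minus the 75th percentile of the array. A 60-mer was kept if the scanner software called it well above background on all arrays of 1 group or more; the one with the highest mean stood for its gene. Of 39429 60-mers, 27234 were named by accession, 3576 by symbol and 565 by synonym through RefSeq tables, and 8054 kept the name in the file. limma 3.58.1 (R 4.3.3) fitted group means over all 12 arrays with a slide term for wt and ko; p-values were Benjamini-Hochberg adjusted over 17907 genes (threshold 0.05), and the fit was tested on simulated data. The number of arrays limits the precision.

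The members and lists were chosen with earlier results of these data known. Named companions were up to 4 genes per list past the threshold with the largest change, and the 8 genes most correlated with Il17rb; partner chains were added with their values known. Same-numbered ko and wt arrays deviated together (r of 0.37, 0.35, 0.18 and 0.67 over all genes), all over 0.1, the limit taken for pairing. For replicates 1 and 2, arrays of unlike number on the same slide did so as strongly (0.45 and 0.32), so number and slide are not separate there. After removal of slide means r was -0.03 on slide 1 and 0.43 on slide 2. With 2 arrays per group on a slide, both same-numbered pairs of a slide must give the same r. For RUNX1-ERt2 and ERt2, with 2 arrays each, r was likewise 1 value, -0.19. Alternatives changed the background correction, normalization, filter, floor, slide term, replicate block, prior, arrays fitted, 60-mer and source table, and left out each array.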

Additional observations from a re-analysis of the deposited data

Results flagged for a closer look

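Over 70 groups of 4 arrays, 3 held 1 array far from the others relative to the range of the group; chance alone gives about 1 in 20. Il13ra1 in wt replicate 2 was at -7.82, where the other wt arrays were between -7.26 and -7.17, all of them not well above background. Il4 in ko replicate 2 was at -0.56, where the other ko arrays were between -0.78 and -0.75. Il17re in wt replicate 4 was at -1.37, where the other wt arrays were between -1.66 and -1.62.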

How the results depend on the processing

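The ko minus wt difference of Il17rb was -3.50 with normexp, -5.44 with signals raised to the lowest one above background and -6.51 to -5.66 without single arrays. The other 60-mer, a value with no p, gave -3.18. Il17rb was left out by construction where only 60-mers above background on all arrays were kept, which gave 0 receptors lower. Over the settings, Il1rl1 ranged from 1.56 to 2.02, Crlf2 from 0.27 to 0.49 and Il17ra from 0.28 to 0.60; on slide 2 alone 0 receptors passed as higher, and 6 companion genes rose and 7 fell, against 42 and 27. For RUNX1-ERt2 minus ERt2, the count of receptors lower (1) was 0 with normexp, quantile normalization, no filter, no slide term or only the groups compared, and 2 with 60-mers above background on all arrays or the trended robust prior, which gave 1 receptor higher; without single arrays 0 to 1 were lower and 0 to 1 higher. Companion genes that rose (18) and fell (38) numbered 10 and 25 with normexp, 9 and 23 with only the groups compared, and 10 to 22 and 19 to 31 without single arrays. Il17ra was -0.46 with the series table, Crlf2 -0.47 with the series table and -0.46 with the median of the array, and Il9r 0.15 with normexp and 0.04 with the floor; Il9r in ko was -0.58 with normexp. Of the 8 genes most like Il17rb, 3 were kept with Spearman correlation and 1 with deviations from slide means. With the replicate block, which joins equal numbers over native and transplanted arrays and replaces the slide term, 2 receptors were lower with RUNX1-ERt2. In that setting Traf3ip2 alone among the companions named in the text lost its call (ko, limma adjusted p = 0.0548). The crossed pairing, chosen after seeing the data, gave 2 receptors lower as well. No result changed sign past the threshold; the causes were not tested. Signals near background limit Il13ra1, Il9r, Il7r and Il17rb outside wt.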
